A study of Mus musculus with 24 samples.

Results

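The genes described here are those whose mean level was higher in mouse embryonic stem cells without MLL3 and MLL4 than in cells without MLL3 alone, in both pluripotent states studied. A gene was chosen if the knockout mean exceeded the floxed mean by at least 1.5 log2 CPM (CPM, counts scaled to library size; 2.83-fold) in naive and in formative cells, and if it reached at least 2 log2 CPM (4 CPM) in a knockout group. Of the 16617 genes measured, 97 passed (0.584%). Hox genes (10), collagen chain genes (Col1a2 and Col8a1) and 5 others (Tex13b, Sgce, Peg10, Nlrp4c and Anxa1) were left out, which leaves 80 genes. Of these, 75 code for proteins, 3 are long intergenic RNAs (A330102I10Rik, Gm32885 and 1700048O20Rik), AI662270 is a processed transcript and Gm24890 is a small nuclear RNA model. Nearest to the threshold from inside were Hormad1, Anxa3 and Dmrtb1, whose smaller differences of the deposited means were 1.52, 1.51 and 1.51, and nearest from outside were Ccn4 (1.49), Cdkn2b (1.47) and Gm29650 (1.47).

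RNA 3' ends were sequenced in 4 lines and 2 states, 24 samples in all. The groups were MLL3KO_MLL4KO cells (knockout), MLL3KO_MLL4fl cells (floxed), which carry the MLL3 knockout and a floxed MLL4 allele, MLL3CD_MLL4CD cells (catalytic-dead, named for a change in both proteins that removes the enzyme activity), and WT cells (wild type). Each was studied as formative cells, collected 63 h after LIF and 2 inhibitors were withdrawn, and as naive cells. The labels place catalytic-dead and wild-type cells in the R1 line and name no parental line for knockout and floxed cells. Both of these lack MLL3, so their comparison concerns the loss of MLL4 on that background, and each genotype is its own line, so that genotype and other differences between lines cannot be told apart. The table gave 1 mean per group, from which the counts of single libraries were recovered where they could be. The formative knockout column turned out to average 4 libraries, 1 of which also entered the formative catalytic-dead column, and formative knockout values below are of its own 3 libraries. Naive wild-type values rest on 2 libraries and those of every other group on 3, each with 4808564 to 15425959 counts. Without the shared library in the formative knockout mean 78 of the 80 genes still met the rule (Dmrtb1 and Tcaf2 did not), of 116 genes that then did. Kmt2d averaged 20.2 CPM in formative and 17.6 CPM in naive knockout cells, against 25.5 and 28.8 CPM in floxed cells, and Kmt2c 15.7 and 22.0 CPM, against 19.2 and 23.4. The labels do not say which part of either gene was deleted, and a 3' tag outside that part does not check the allele.

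MLL3 (Kmt2c) and MLL4 (Kmt2d) are large histone methyltransferases that put a single methyl group on lysine 4 of histone H3, mostly at enhancers, and they also serve as scaffolds for other enhancer proteins. Their best known part is in switching genes on. Genes that are higher without them are less described, and in embryonic stem cells many lineage and germline genes are kept low by Polycomb complexes or DNA methylation. Catalytic-dead proteins are designed to keep the scaffold and lose the enzyme.

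The label under which the genes were proposed, derepressed by loss of MLL4, implies a level above wild type. The rule did not use wild-type cells but chose genes with high knockout values, so the counts that follow are a description and no support for the label. Knockout cells were at least 1 log2 above wild type in both states for 60 of the 80 genes, against 3.03% of all genes. A further 16 were so in 1 state, for which the share of all genes was not counted. Syce1, Rhox5, Ugt8a and Zfp560 were within 1 log2 of wild type in both states, as were 68.8% of all genes. For these 4 genes, against the label, floxed cells were at least 1 log2 below wild type in both states. The 80 genes are called high in the knockout line here.

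Promoters from RefSeq (GRCm38.p6, from 250 bases before to 50 after the start) were matched for 58 of the 80 genes and for 10264 genes of the table. The genes' promoters held a median of 10.5 CpG sites and 55.5% G and C, against 21 sites and 61.3% over all matched genes. Under 5 CpG sites were found in 10 of the 58 (17.2%), against 6.23% of all, and these were Nts, Frk, Pnma5, Mbl2, Nr2f2, Glrx, Herc6, 1700048O20Rik, Cd59a and Tek. The range was wide, with 1 to 45 sites. Below, Nts and Acta2 are shown as the leading genes that had an entry (A330102I10Rik and Heph did not), and Fkbp6 and Gata2, chosen after the values were seen, as CpG-rich examples of a germline and a developmental gene. Capitals mark CpG sites. The Nts window is chr10:102490369-102490668 (minus strand) with 3 sites, the Acta2 window chr19:34255324-34255623 (minus) with 6, the Fkbp6 window chr5:135349995-135350294 (minus) with 21 and the Gata2 window chr6:88193641-88193940 (plus) with 32.
Nts: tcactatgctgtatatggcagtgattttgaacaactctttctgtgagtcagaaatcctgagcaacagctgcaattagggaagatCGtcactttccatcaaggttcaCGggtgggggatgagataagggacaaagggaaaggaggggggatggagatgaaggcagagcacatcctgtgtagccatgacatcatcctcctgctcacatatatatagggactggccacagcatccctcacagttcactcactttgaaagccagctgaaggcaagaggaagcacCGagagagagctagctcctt
Acta2: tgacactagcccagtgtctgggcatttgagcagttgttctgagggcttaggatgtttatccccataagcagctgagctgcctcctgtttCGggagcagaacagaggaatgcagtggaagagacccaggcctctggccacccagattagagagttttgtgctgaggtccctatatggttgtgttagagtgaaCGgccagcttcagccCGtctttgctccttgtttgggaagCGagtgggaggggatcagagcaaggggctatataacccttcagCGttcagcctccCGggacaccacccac
Fkbp6: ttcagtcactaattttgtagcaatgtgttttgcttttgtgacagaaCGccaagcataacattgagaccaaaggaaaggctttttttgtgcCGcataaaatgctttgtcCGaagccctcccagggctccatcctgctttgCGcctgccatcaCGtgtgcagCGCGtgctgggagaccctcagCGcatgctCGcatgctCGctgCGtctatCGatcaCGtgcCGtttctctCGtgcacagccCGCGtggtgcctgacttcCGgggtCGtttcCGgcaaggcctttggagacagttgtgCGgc
Gata2: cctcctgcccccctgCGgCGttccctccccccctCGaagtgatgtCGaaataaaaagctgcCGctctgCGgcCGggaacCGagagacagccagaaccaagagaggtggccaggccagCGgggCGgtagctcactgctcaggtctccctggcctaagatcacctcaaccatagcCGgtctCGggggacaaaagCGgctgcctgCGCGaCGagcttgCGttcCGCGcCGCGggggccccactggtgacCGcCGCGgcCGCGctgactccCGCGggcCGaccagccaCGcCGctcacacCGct

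Acta1 and Actc1, the skeletal and cardiac muscle actins, held a match to the strict CArG consensus, CC and then 6 letters that are each A or T and then GG, and no other of the 58 promoters did (3.45% of them, against 1.23% of all matched promoters). Looser forms, with another letter inside the box, were not searched. The CArG box is the site bound by serum response factor, a regulator of actin genes. It is in capitals below, with its first base at -73 in Acta1 (chr8:123894726-123895025, minus) and at -47 in Actc1 (chr2:114052826-114053125, minus), counted from the RefSeq start. That start lay 24 bases from the GENCODE gene start for Acta1 and 673 bases for Actc1, so the Actc1 position is uncertain. TATAAA was found in 7 promoters (12.1%, against 6.89%), TGANTCA, the AP-1 motif, in 6 (10.3%, against 4.59%) and CACGTG, the E-box bound by Myc and USF proteins, in 10 (17.2%, against 10.5%), searched on both strands. These are matches of letters in the window, and no binding was measured.
Acta1: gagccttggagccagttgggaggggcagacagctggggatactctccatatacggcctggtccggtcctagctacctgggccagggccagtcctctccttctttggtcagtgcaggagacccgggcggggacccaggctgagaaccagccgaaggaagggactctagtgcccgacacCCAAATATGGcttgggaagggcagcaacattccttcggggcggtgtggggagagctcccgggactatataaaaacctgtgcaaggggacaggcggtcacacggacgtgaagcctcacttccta
Actc1: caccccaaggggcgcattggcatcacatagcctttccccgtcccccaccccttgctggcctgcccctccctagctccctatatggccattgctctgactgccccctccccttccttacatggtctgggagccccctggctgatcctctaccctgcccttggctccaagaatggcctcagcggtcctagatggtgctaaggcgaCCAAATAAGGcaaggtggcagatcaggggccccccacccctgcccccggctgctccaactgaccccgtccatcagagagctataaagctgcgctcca

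The 80 genes had a median of 3.56 log2 CPM in formative knockout cells, against 0.93 in formative floxed cells, and of 3.04 in naive knockout cells, against 0.45 in naive floxed cells. In catalytic-dead cells the median was 2.13, against 1.64 in wild type, in the formative state, and 1.95, against 0.86 in wild type, in the naive state. By the deposited means, which a small added count raises, 24 members lay under 1 CPM in formative floxed cells (13.8% of all genes did) and 34 in naive floxed cells (18.6%). None did in knockout cells, of which the rule asked a minimum in 1 state, with the formative mean taken over their own libraries. The deposited formative knockout mean of Krt14, which includes the shared library, was 0.9997 CPM, and the naive knockout libraries of Zic1 averaged 0.979 CPM. The median difference between knockout and floxed cells was 2.69 log2 in formative cells (1.38 to 6.32) and 2.56 in naive cells (1.51 to 4.88), where the medians of all genes were 0.07 and 0.01. A difference of 1.5 or more was found for 2.59% of all genes in formative and 3.47% in naive cells. These values follow from the rule and are a description. The count of tags does not separate fewer cells with much RNA of a gene from more cells with less of it, and these cannot be told apart here.

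**Figure D1:**
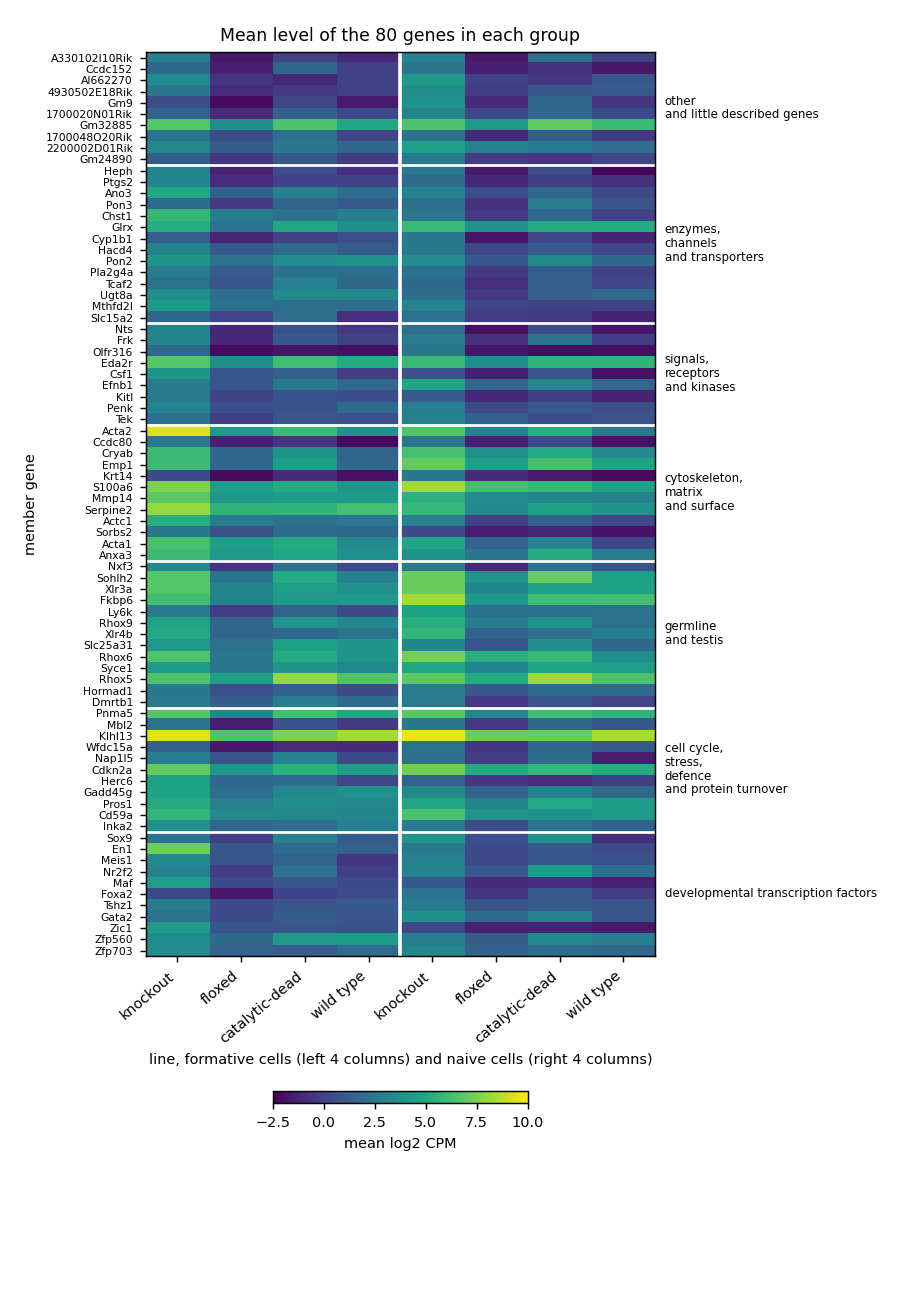
Mean log2 CPM (colour) of the 80 genes (rows, grouped by known role) in knockout, floxed, catalytic-dead and wild-type cells, formative (left 4 columns) and naive (right 4 columns); the formative knockout column is of its own 3 libraries. The floxed columns are the darkest in most rows. The catalytic-dead median lies between those of floxed and knockout cells, with 2.13 in formative and 1.95 in naive cells. Single genes lie outside, such as Nr2f2 and Anxa3 above knockout and AI662270 and S100a6 below floxed in naive cells.

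The leading gene by the smaller of the 2 differences was A330102I10Rik, a long intergenic RNA on chromosome 13 (29014399 to 29040336, plus strand, GRCm38). It had 7.12, 7.28 and 6.86 CPM in formative knockout libraries and 0, 0.508 and 0 CPM in formative floxed libraries. Naive values of A330102I10Rik were 9.21, 8.34 and 6.81 CPM in knockout and 0.186, 0.192 and 0 CPM in floxed libraries. Every knockout library was above every floxed one, in libraries that the rule used, and the formative and naive knockout levels were alike. Heph, which encodes the iron-export ferroxidase hephaestin (X chromosome, 96455359 to 96574485, plus), had 7.02, 8.42 and 9.77 CPM in formative knockout libraries, against 0.305, 0 and 0.467 in floxed. In naive cells Heph had 4.41, 6.12 and 5.82 CPM in knockout libraries, against 0.28, 0 and 0.151 in floxed. Nts, the neurotensin precursor, had 7.92, 10.4 and 7.07 CPM in formative knockout libraries, against 0.458, 0.0847 and 0.28 in floxed ones. In the naive state it had 3.57, 2.75 and 5.07 CPM in knockout and 0, 0.192 and 0 CPM in floxed libraries. All 3 genes lay under 1 CPM in every floxed library.

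Acta2, smooth muscle actin, was the most abundant of the leading genes in formative knockout cells. Its own knockout mean there was about 637 CPM, an approximation because its libraries were not recovered, against 17, 19.14 and 18.4 CPM in floxed libraries. In naive cells the deposited knockout mean was 95.9 CPM, against 7.27, 10.3 and 7.1 CPM in floxed libraries. Frk, a Src-family tyrosine kinase, had 6.92, 11.6 and 9.15 CPM in formative knockout libraries, against 0.611, 0.0847 and 0.28 in floxed. Naive Frk values were 5.83, 8.16 and 5.94 CPM in knockout libraries and 1.96, 0 and 0.302 CPM in floxed ones, where 1 floxed library stood above the other 2. Nxf3, of the family of nuclear RNA export factors, had 8.72, 9.71 and 12.7 CPM in formative knockout libraries, against 0.305, 0.254 and 1.03 in floxed. Its naive values were 5.06, 6.04 and 5.82 CPM in knockout and 0.0932, 0.288 and 0.453 CPM in floxed libraries. Knockout and floxed libraries, which the rule used, did not overlap for either gene.

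Pnma5, of the paraneoplastic Ma antigen family, had an own mean of about 103 CPM in formative and a deposited mean of 107 CPM in naive knockout cells. Floxed libraries had 6.72, 14 and 8.58 CPM in the formative and 10.3, 10 and 9.37 CPM in the naive state, and the deposited wild-type means were 31 and 50.3 CPM, so Pnma5 stood above floxed more than above wild type. Ccdc152 had 5.01, 1.43 and 3.74 CPM in formative knockout libraries, against 0.305, 0 and 0.28 in floxed. Naive knockout libraries had 6.48, 3.64 and 5.32 CPM of Ccdc152, against 0.28, 0.288 and 0 in floxed ones. It lies over Selenop on the opposite strand, and whether reads were counted by strand is not stated in the labels, so that reads of such pairs cannot be told apart. In all, 11 of the 80 genes overlap another protein-coding gene in the annotation, among them Cryab (Hspb2), Nap1l5 (Herc3) and Hacd4 (Focad) with partners in the table. Gm24890, the small nuclear RNA model, overlaps Piwil2 on the same strand, so reads of this pair cannot be told apart by strand.

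**Figure D2:**
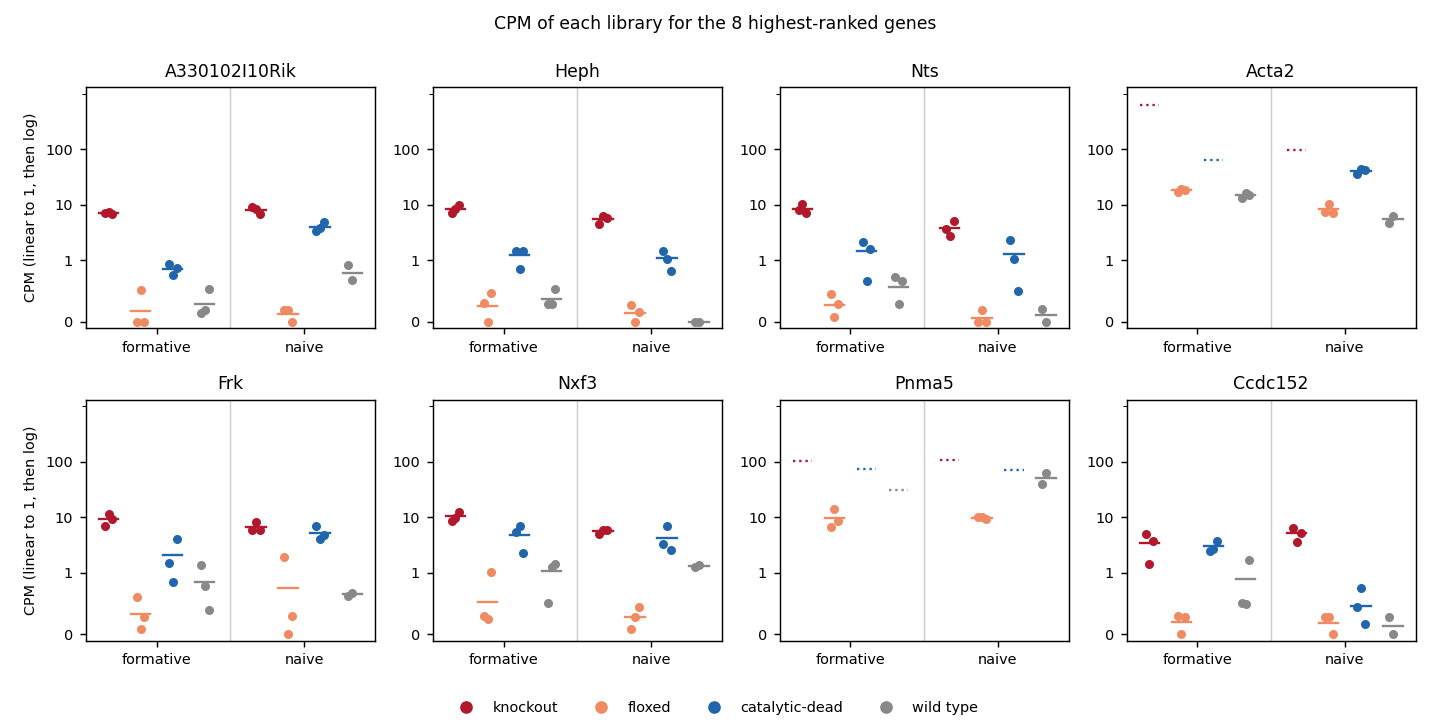
CPM of each library (points; linear to 1, then a log scale) for the 8 leading genes in knockout, floxed, catalytic-dead and wild-type cells, formative at the left and naive at the right of each panel; solid lines are means and dotted lines deposited or own means where libraries were not recovered. Knockout libraries, which the rule used, lie above all floxed libraries of their state in the 6 genes recovered in both. Catalytic-dead means lie between those of knockout and wild type, but single catalytic-dead libraries overlap with knockout or wild-type ones for Nts, Frk, Nxf3 and Ccdc152.

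Over all members with recovered libraries, each knockout library exceeded each floxed one for 59 of 60 genes in formative cells (19.6% of all genes) and for 59 of 59 in naive cells (15.1%). Tcaf2 was the exception. The rule used these libraries, and nothing further is read from the counts.

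The members were sorted by known role into 7 groups, whose median differences between knockout and floxed cells lay between 2.28 and 3.09 log2 in formative cells and between 2.04 and 3.54 in naive cells. The developmental transcription factors had medians of 2.45 in formative and 2.04 in naive cells, and 11 members. Foxa2, a pioneer factor of endoderm, had 1.2, 1.14 and 0.832 CPM in formative knockout libraries, against 0.0764, 0 and 0.373 in floxed, and 6.03, 3.99 and 4.21 CPM in naive ones, against 0.466, 0.385 and 0.755. Foxa2 was thus low in formative knockout cells, where formative wild-type libraries had 0.792, 1.77 and 1.06 CPM and overlapped with them. Meis1 had 13.8, 8.71 and 9.98 CPM in formative knockout libraries, against 1.83, 1.78 and 0.933 in floxed, and 7.84, 6.92 and 7.55 CPM in naive ones, against 1.3, 1.25 and 0.906. Tshz1 and Zfp703, both zinc finger proteins, differed by 2.36 and 2.21 log2 in formative and by 2.01 and 1.85 in naive cells.

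The 9 signals, receptors and kinases had medians of 2.95 and 2.56 in formative and naive cells. Efnb1, the ligand ephrin-B1, had 5.91, 6.99 and 7.69 CPM in formative knockout libraries, against 0.993, 2.03 and 1.59 in floxed, and 29.5, 25.6 and 33.3 CPM in naive ones, against 1.77, 2.5 and 5.14. Kitl, the ligand of the Kit receptor, had 4.71, 5.85 and 8.32 CPM in formative knockout libraries, against 0.611, 1.02 and 0.933 in floxed. Penk, the precursor of enkephalins, had 7.12, 11.4 and 7.07 CPM there, against 1.15, 1.02 and 1.59. All 3 genes showed no overlap between knockout and floxed libraries in either state, in libraries that the rule used. Of all genes, 19.6% in formative and 15.1% in naive cells had every knockout library above every floxed one. Tek, the angiopoietin receptor, differed by 2.28 log2 in formative and 1.65 in naive cells, and Eda2r, a receptor of the TNF receptor family, by 2.95 and 2.28.

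The 12 cytoskeletal, matrix and surface genes had medians of 2.65 in formative and 2.49 in naive cells and the 14 enzymes, channels and transporters of 2.28 and 2.61. Ccdc80, a matrix protein, had 3.71, 5.71 and 8.11 CPM in formative knockout libraries, against 0.0764, 0.339 and 0.187 in floxed, and 5.77, 3.9 and 5.45 CPM in naive ones, against 0.186, 0.192 and 0.151. Ano3, a membrane protein of the anoctamin family, had 28.5, 33.7 and 33.5 CPM in formative knockout libraries, against 2.9, 2.29 and 2.05 in floxed, and 7.26, 7.99 and 8.79 CPM in naive ones, against 1.4, 0.673 and 1.66. Both were above every floxed library in each state, in libraries that the rule used, and the level of Ano3 was higher in the formative state. S100a6, a calcium-binding protein, was among the more abundant, with means of about 190 CPM in formative and 307 CPM in naive knockout cells, against 18.4, 22.8 and 25.2 CPM in formative floxed libraries and a naive floxed mean of 77.2 CPM. Serpine2, a serine protease inhibitor, averaged about 260 CPM in formative knockout cells, against 50.1 CPM in floxed cells. In naive cells Serpine2 averaged 57.2 CPM in knockout cells, against 10.2, 12.1 and 10.6 CPM in floxed libraries. Cyp1b1, a cytochrome P450, had 6.03, 3.73 and 7.92 CPM in naive knockout libraries, against 0.0932, 0.192 and 0 in floxed, and 2, 2.71 and 2.08 CPM in formative ones, against 0.0764, 0.169 and 0.56. The naive gap of Cyp1b1 was 4.34 log2 and the formative one 2.51. Mthfd2l, a mitochondrial folate enzyme, differed by 2.20 in formative and 3.06 in naive cells.

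The 13 germline and testis genes had medians of 3.09 in formative and 2.61 in naive cells, and the 11 cell cycle, stress, defence and turnover genes of 2.83 and 2.30. Rhox9 had 26.1, 29.7 and 22.9 CPM in formative knockout libraries, against 3.51, 2.2 and 2.99 in floxed, and 39.4, 38.6 and 42.9 CPM in naive ones, against 5.96, 6.82 and 6.65. Xlr3a averaged about 105 CPM in formative and 141 CPM in naive knockout cells, against 5.42, 11.7 and 9.33 CPM in formative and 12.2, 7.88 and 8.91 CPM in naive floxed libraries. Sohlh2 averaged about 103 CPM in formative and 138 CPM in naive knockout cells, against 4.81, 3.56 and 6.34 CPM in formative and 17, 9.9 and 20.8 CPM in naive floxed libraries. Ly6k had 5.81, 6.42 and 5.41 CPM in formative knockout libraries, against 0.916, 0.169 and 1.12 in floxed, and 24.9, 21.5 and 30.1 CPM in naive ones, against 5.59, 6.06 and 1.81. Rhox9, Xlr3a, Sohlh2 and Ly6k were thus detected in floxed cells too, at a lower level. Nxf3, of the same group, was barely detected there, with 0.0932, 0.288 and 0.453 CPM in naive floxed libraries. Hormad1, a meiotic chromosome axis protein, had 3.31, 8.42 and 6.03 CPM in formative knockout libraries, against 0.916, 3.05 and 0.653 in floxed. Cd59a, an inhibitor of complement, had 53.9, 65.7 and 48 CPM in formative knockout libraries, against 10, 12.2 and 10.8 in floxed. Mbl2, a mannose-binding lectin of the complement system, differed by 3.78 log2 in formative and 2.93 in naive cells. The 10 little described genes had the highest naive median, with 2.84 in formative and 3.54 in naive cells. AI662270 had 10.9, 13.8 and 10.4 CPM in formative knockout libraries, against 0.305, 0.169 and 1.31 in floxed, and 15.9, 20.1 and 19.06 CPM in naive ones, against 0.652, 0.673 and 0.906.

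The sizes of the 2 differences varied by state. For 56 genes they were within 1 log2 of each other, for 12 the formative difference was larger and for 12 the naive one. The same split was not counted over all genes, and the rule used these libraries. En1, the midbrain and hindbrain homeobox gene Engrailed 1, had the largest gap, with a knockout minus floxed difference of 6.32 log2 in formative and 2.26 in naive cells. Its own mean was about 149 CPM in formative knockout cells, against 1.3, 1.02 and 3.36 CPM in floxed libraries, and naive libraries had 5.51, 6.48 and 5.94 CPM in knockout, against 0.838, 1.25 and 1.21 in floxed. Maf, a basic leucine zipper factor, had 24, 20.4 and 22 CPM in formative knockout libraries, against 0.764, 1.27 and 1.12 in floxed. In naive cells Maf had 1.43, 2.57 and 1.73 CPM in knockout and 0.186, 0.288 and 0.453 CPM in floxed libraries. Zic1, a neural zinc finger factor, had 20.5, 21.6 and 19.5 CPM in formative knockout libraries, against 1.3, 2.46 and 1.31 in floxed, while every naive library lay under 1.3 CPM. Acta2, Sohlh2, Ptgs2, Ano3, Cryab, Emp1, Csf1, Rhox6 and S100a6 were the other 9 with a larger formative difference.

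The 12 genes with the larger naive difference were Gm9, Cyp1b1, Dmrtb1, Acta1, Gm24890, 1700048O20Rik, Efnb1, Tcaf2, Sox9, Krt14, Fkbp6 and Xlr4b. Gm9, an X-linked gene, had 1.9, 2 and 0.416 CPM in formative knockout libraries, against 0, 0 and 0.0933 in floxed. Naive Gm9 values were 13.7, 13.8 and 15.2 CPM in knockout and 0.186, 0.385 and 0.302 CPM in floxed libraries. Krt14, the basal epidermal keratin 14, had 1, 1.14 and 1.04 CPM in formative knockout libraries, against 0, 0.0847 and 0 in floxed, and 4.02, 5.33 and 8.66 CPM in naive knockout libraries, against 0.745, 0.481 and 0. For both genes every naive knockout library was above every formative one. Between formative and naive knockout cells 21 members differed by at least 1 log2 upwards (17.9% of all genes did) and 13 downwards (5.42%), and between formative and naive floxed cells 21 (17.4%) and 20 (8.82%), without a test, since the rule used these libraries.

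Against wild-type cells, the median difference of the 80 genes was 2.22 log2 in formative and 2.40 in naive knockout cells, where all genes had 0.06 and 0.03. Floxed cells differed from wild type by a median of -0.62 in the formative and -0.31 in the naive state, and all genes by 0.01 and 0.02. Floxed cells were at least 1 log2 below wild type in both states for 14 members, against 1.88% of all genes, and within 1 log2 of it in both for 36. The share of all genes within 1 log2 was not counted for floxed cells. The 14 were Pnma5, Mbl2, Fkbp6, Klhl13, Eda2r, Gm32885, Pon3, Slc25a31, Glrx, Syce1, Rhox5, Inka2, Ugt8a and Zfp560. Since the rule chose low floxed values, these are descriptions.

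**Figure D3:**
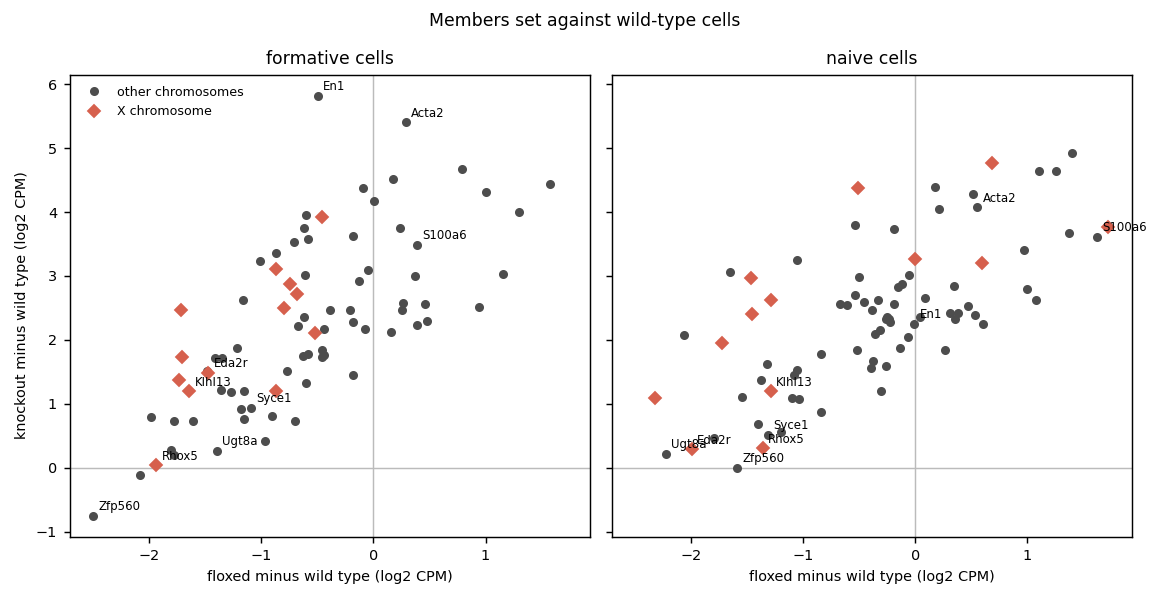
Knockout minus wild type (vertical axis) against floxed minus wild type (horizontal axis), log2 CPM, for the 80 genes in formative and naive cells, with the 13 genes on the X chromosome as diamonds. Most genes lie above 0 on the vertical axis, with medians of 2.22 and 2.40, and those at the left were lower in floxed than in wild-type cells; the 2 axes share the wild-type libraries.

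Fkbp6, which encodes a meiotic immunophilin, shows the last pattern. It had a deposited mean of 322 CPM in naive knockout cells, against 14.3, 25 and 16.3 CPM in naive floxed libraries, while naive wild-type libraries had 73.2 and 78.5 CPM. In formative cells its own knockout mean was about 74.9 CPM, against 7.56, 8.04 and 10.4 CPM in floxed and 18.2, 21.9 and 20.7 CPM in wild-type libraries. Syce1, a synaptonemal complex protein, had 19.8, 18.6 and 25.6 CPM in formative knockout libraries, against 4.05, 5.76 and 5.41 in floxed and 12.2, 10.1 and 10.5 in wild type. Knockout libraries of Syce1 were above wild-type ones, but by only 0.94 log2 in formative and 0.51 in naive cells.

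The X chromosome carried 13 of the 80 genes (16.25%), against 572 of 16617 genes in the table (3.44%). They are Heph, Nxf3, Pnma5, Xlr3a, Xlr4b, Rhox5, Rhox6, Rhox9, Gm9, 4930502E18Rik, Klhl13, Eda2r and Efnb1. X-linked genes as a whole differed between knockout and floxed cells by a median of 0.08 log2 in formative and 0.14 in naive cells, and autosomal genes by 0.07 and 0.01. In floxed cells the 13 were below wild type by a median of -0.87 in the formative and -1.29 in the naive state, against -0.58 and -0.26 for the other members. Members that lie within 100 kb of each other are Pon3 and Pon2 (7.86 kb), the paraoxonase genes, Pnma5 and Xlr3a (49.2 kb), and the homeobox genes Rhox5, Rhox6 and Rhox9 (18 to 90.2 kb). This is 8.75% of the members, against 1.43% of all genes with a gene of the rule at that distance. Xlr and Rhox genes belong to gene families, and counting can split reads between copies that are near-identical. Which of these members have such copies was not checked, so their values are uncertain.

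Catalytic-dead against wild-type cells give a test on libraries that the rule did not use, apart from the 1 shared formative library. The question is whether the same genes differ between cells made with catalytic-dead MLL3 and MLL4 and wild-type cells. Both proteins are changed here, against cells with MLL3, while the rule compared cells that all lack MLL3. Protein levels were not measured here. In formative cells 21 of 73 tested members rose (28.8%), against 4.89% of all tested genes, and Inka2 fell, where 3.53% of all genes fell (limma with Benjamini-Hochberg adjustment over all tested genes, threshold 0.05). In naive cells 22 of 71 tested members rose (31.0%), against 5.4% of all tested genes, and none fell in limma, where 4% of all genes did and 2 members were lower at an unadjusted p under 0.05. The median difference of the tested members was 0.74 in formative and 0.89 in naive cells, where all tested genes had 0.06 and 0.13. Without the shared library 16 members rose in formative cells. All members whose libraries were recovered in both groups passed the filter on low counts, which counts the knockout libraries too, and the other 7 and 9 were not tested because their counts were not recovered.

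Among the 69 members tested in both states, 10 rose in both, against 0.998% of all genes tested in both: Acta1, Anxa3, Cryab, Csf1, Efnb1, Nap1l5, Nr2f2, Rhox6, Rhox9 and Sox9. The formative calls of Csf1, Efnb1 and Rhox9 were lost without the shared library, with adjusted p of up to 0.207, 0.177 and 0.26 over all alternatives. Over all 80 members, the deposited mean of catalytic-dead cells was at least 1 log2 above wild type for 35 in formative cells (5.81% of all genes) and for 37 in naive cells (8.86%). It was at least 1 log2 below for 2 in formative (4.19%) and 2 in naive cells (5.93%). Among the members that were not tested, the deposited means of catalytic-dead cells were at least 1 log2 above wild type for 4 of 7 in formative cells (Acta2, Pnma5, Gm32885 and Rhox5) and for 4 of 9 in naive cells (Sohlh2, Emp1, S100a6 and Rhox5). Rhox5 had 258 CPM in formative catalytic-dead cells, against 92.9 in wild type, and 292 CPM in naive catalytic-dead cells, against 93.3. Klhl13, which encodes a substrate adaptor of a ubiquitin ligase, lay the other way, with 186 CPM in formative catalytic-dead cells, against 305 in wild type, and 134 CPM in naive catalytic-dead cells, against 346 in wild type.

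**Figure D4:**
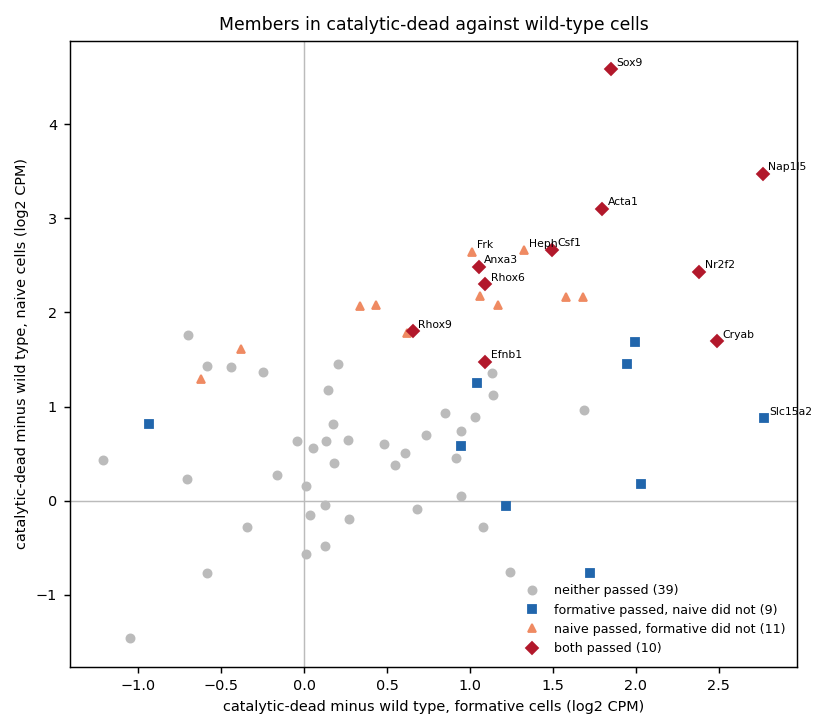
Catalytic-dead minus wild type in formative cells (horizontal axis) and in naive cells (vertical axis), log2 CPM, for the 69 members tested in both, with symbols for the test passed at an adjusted p under 0.05. The 10 genes that passed in both states lie in the upper right, led by Nap1l5 (2.76 and 3.47) and Sox9 (1.85 and 4.58).

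Among the developmental transcription factors, 3 of 11 tested rose in catalytic-dead cells in each state, Sox9, Nr2f2 and Meis1 in formative and Sox9, Nr2f2 and Gata2 in naive cells. Sox9, a factor of cartilage, gonad and neural crest, had 8.44, 6.24 and 8.09 CPM in formative catalytic-dead libraries, against 1.37, 2.85 and 1.86 in wild type. Naive Sox9 values were 14, 14.8 and 11.5 CPM in catalytic-dead libraries, against 0.281 and 0.453 in wild type, with no overlap in either state. The difference was 1.85 ± 0.36 log2 (SE, adjusted p = 0.000955, limma) in formative and 4.58 ± 0.47 (adjusted p = 2.08e-07) in naive cells. Naive knockout libraries had 17, 17.2 and 16.8 CPM, against 1.49, 1.83 and 0.755 in floxed, so the catalytic-dead level of Sox9 was near the knockout level there. Nr2f2, an orphan nuclear receptor, had 5.87, 2.65 and 5.64 CPM in formative catalytic-dead libraries, against 0.864, 0.196 and 1.46 in wild type, a difference of 2.38 ± 0.46 (adjusted p = 0.00105, limma). In naive cells Nr2f2 had 19.9, 22.4 and 24.8 CPM in catalytic-dead libraries, against 3.65 and 4.3 in wild type, more than the 9.14, 8.08 and 8.91 CPM of naive knockout libraries.

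Meis1, a homeobox cofactor of Hox proteins, had 2.08, 3.31 and 2.46 CPM in formative catalytic-dead libraries, against 0.504, 0.393 and 0.531 in wild type (2.03 ± 0.44 log2, adjusted p = 0.00274, limma). Gata2, a zinc finger factor of trophoblast and blood, had 6.71, 8.06 and 7.71 CPM in naive catalytic-dead libraries, against 0.983 and 2.6 in wild type (2.07 ± 0.55 log2, adjusted p = 0.0156, limma). The call on Gata2 was lost without wild-type library a, at an adjusted p of 0.0605. En1, Maf and Zic1, the transcription factors that differed most between formative and naive knockout cells, did not pass. Their formative differences between catalytic-dead and wild-type cells were 0.48, 0.61 and 0.18 log2. Foxa2, Tshz1, Zfp560 and Zfp703 did not pass either, with formative differences of -0.44, -0.16, -0.04 and -0.71.

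Of the cytoskeletal, matrix and surface genes, 5 of 10 tested rose in each state, Emp1, Cryab, Acta1, S100a6 and Anxa3 in formative and Acta1, Acta2, Anxa3, Ccdc80 and Cryab in naive cells. Acta2 had 35.9, 43.5 and 41.5 CPM in naive catalytic-dead libraries, against 4.71 and 6.34 in wild type, which differ by 2.83 ± 0.27 log2 (adjusted p = 3.98e-07, limma). In the formative state the deposited means were 64.8 CPM in catalytic-dead cells, against 15 in wild type, without a test. Acta1 had 30.1, 38.5 and 38.4 CPM in formative catalytic-dead libraries, against 11.4, 13.4 and 6.64 in wild type, and 9.61, 9.74 and 8.69 CPM in naive ones, against 0.913 and 0.905. These were differences of 1.80 ± 0.20 (adjusted p = 1.62e-06, limma) and 3.10 ± 0.49 log2 (adjusted p = 0.000129). Actc1, the third actin gene and the other with a strict CArG match, did not pass, with 3.15, 6.53 and 3.76 CPM in formative catalytic-dead libraries, against 5.4, 4.91 and 5.05 in wild type.

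Emp1, an epithelial membrane protein, had 20, 26.1 and 20.1 CPM in formative catalytic-dead libraries, against 2.23, 4.42 and 2.79 in wild type. With 2.77 ± 0.29 log2 (adjusted p = 1.49e-06, limma) it had, with Slc15a2, the largest formative rise of the tested members. Cryab, the small heat shock protein alpha-B crystallin, had 15, 14.9 and 16.6 CPM in formative catalytic-dead libraries, against 1.87, 3.63 and 2.52 in wild type (2.49 ± 0.29, adjusted p = 2.33e-06, limma). Anxa3, a calcium-binding annexin, had 40.6, 34.5 and 38.1 CPM in naive catalytic-dead libraries, against 6.81 and 6.34 in wild type, above the 16.8, 13.6 and 16 CPM of naive knockout libraries. Serpine2, Sorbs2, Mmp14 and Krt14 did not pass in naive cells, with differences of 0.71, 0.82, 0.16 and 0.46 log2. Sorbs2 and Krt14 lay under 1 CPM in every naive catalytic-dead and wild-type library, where a small change could not be seen.

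Signals, receptors and kinases gave 2 of 8 in formative cells (Csf1 and Efnb1) and 4 of 8 in naive cells (Csf1, Frk, Nts and Efnb1). Frk had 7.04, 4.11 and 4.76 CPM in naive catalytic-dead libraries, against 0.632 and 0.679 in wild type (2.64 ± 0.65 log2, adjusted p = 0.00842, limma). Nts had 2.35, 1.07 and 0.492 CPM there, against 0.211 and 0 in wild type. With 3 tags in all in wild type, its ratio was 11 (95% exact interval 3.44 to 56.4), and the call (2.17 ± 0.58, adjusted p = 0.0156, limma) was lost without wild-type library b or catalytic-dead library a, the highest adjusted p being 0.106. Ccdc80 and Gadd45g also lost naive calls without 1 library, at adjusted p of up to 0.148 and 0.0565. Csf1, the macrophage growth factor, had 2.01, 1.22 and 1.31 CPM in naive catalytic-dead libraries, against 0.141 and 0 in wild type, a ratio of 18.2 (4.65 to 156) on 2 wild-type tags. Its formative call (1.49 ± 0.47, adjusted p = 0.0474, limma) was lost without any of 5 libraries, among them the shared one, up to an adjusted p of 0.207. Olfr316, an olfactory receptor that had 4.81, 2.57 and 2.08 CPM in formative knockout libraries, stayed at 0.0716, 0.189 and 0 CPM in formative catalytic-dead libraries, against 0.072, 0.0981 and 0 in wild type. At this level a small change could not be seen.

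Of the enzymes, channels and transporters 3 of 14 rose in each state, Slc15a2, Glrx and Ano3 in formative and Heph, Pon3 and Pon2 in naive cells. Slc15a2, a peptide transporter, had 3.94, 3.59 and 3.47 CPM in formative catalytic-dead libraries, against 0.288, 0.294 and 0.531 in wild type (2.77 ± 0.50, adjusted p = 0.000451, limma). Glrx, the redox enzyme glutaredoxin, had 31.9, 32.1 and 29 CPM in formative catalytic-dead libraries, against 11.3, 14.4 and 14.2 in wild type (1.21 ± 0.20, adjusted p = 0.000202, limma). Heph had 1.45, 1.07 and 0.82 CPM in naive catalytic-dead libraries and no tag in wild type, at least 8.90-fold higher if 3 tags are allowed over the wild-type group. The fitted value of Heph (2.66 ± 0.38, adjusted p = 2.51e-05, limma) depends on the prior count. Ptgs2, the inducible cyclooxygenase, did not pass, with 0.358, 1.14 and 1.16 CPM in formative catalytic-dead libraries, against 0.504, 1.08 and 0.797 in wild type, while formative knockout libraries had 8.02, 7.57 and 15.2 CPM, against 0.0764, 0.593 and 0.467 in floxed. The calls on Pon3 and Ano3 were lost under some alternatives, at adjusted p up to 0.0639 and 0.19.

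Of the germline and testis genes 4 of 12 tested rose in formative cells (Sohlh2, Nxf3, Rhox6 and Rhox9) and 3 of 10 in naive cells (Rhox6, Rhox9 and Slc25a31). Sohlh2, a basic helix-loop-helix factor of early germ cells, had 29, 37.4 and 38.4 CPM in formative catalytic-dead libraries, against 7.13, 10.1 and 5.71 in wild type (2.19 ± 0.25, adjusted p = 2.82e-06, limma). In naive cells its deposited means were 142 CPM in catalytic-dead cells, against 23.6 in wild type. Rhox6 had 28.7, 45.9 and 36.6 CPM in formative catalytic-dead libraries, against 13.3, 20.6 and 17.8 in wild type, and 66.7, 59.8 and 53 CPM in naive ones, against 10.6 and 13.5. Slc25a31, the ADP/ATP carrier of sperm, had 10.7, 11.9 and 13.5 CPM in naive catalytic-dead libraries, against 2.46 and 4.53 in wild type (1.78 ± 0.37, adjusted p = 0.00197, limma). Nxf3 had 5.37, 6.91 and 2.31 CPM in formative catalytic-dead libraries, against 0.504, 1.28 and 1.46 in wild type, a call (1.94 ± 0.51, adjusted p = 0.0148, limma) that was lost without wild-type library a (0.152). Fkbp6, Xlr3a and Xlr4b did not pass in formative cells, with -0.16, 0.68 and -0.58 log2.

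The cell cycle, stress, defence and protein turnover genes gave 3 higher and 1 lower of 9 in formative cells (Nap1l5, Herc6 and Cdkn2a, and Inka2) and 2 of 9 in naive cells (Nap1l5 and Gadd45g). The call on Inka2 (-0.94 ± 0.28, adjusted p = 0.0333, limma) was lost in 7 alternatives, with an adjusted p of up to 0.162. Among these, the one without the shared library is counted under 2 names. Nap1l5, an imprinted gene of the nucleosome assembly family that lies within Herc3, had 7.8, 7.47 and 8.67 CPM in formative catalytic-dead libraries, against 0.72, 1.96 and 0.664 in wild type (2.76 ± 0.41, adjusted p = 3.4e-05, limma). Naive catalytic-dead libraries had 3.8, 2.59 and 4.76 CPM, against 0.0702 and 0.226 in wild type, a ratio of 28.5 (9.40 to 141) on 3 wild-type tags. Herc6, an interferon-induced ubiquitin ligase of the HERC family, had 2.86, 4.54 and 3.18 CPM in formative catalytic-dead libraries, against 0.792, 0.883 and 1.06 in wild type. The call on Herc6 (1.72 ± 0.43, adjusted p = 0.0101, limma) was lost without wild-type library a (0.0836). Cdkn2a, which encodes the cell cycle inhibitors p16 and p19, had 47.9, 38.7 and 48.6 CPM in formative catalytic-dead libraries, against 27.5, 20.8 and 21.7 in wild type (0.95 ± 0.21, adjusted p = 0.00451, limma), lost without the shared library (0.0532). The little described genes gave 1 of 9 in formative cells (1700048O20Rik, 1.99 ± 0.51, adjusted p = 0.0114, limma) and 2 of 9 in naive cells, A330102I10Rik with 3.35, 3.8 and 4.92 CPM in catalytic-dead libraries, against 0.913 and 0.679 in wild type, and Gm9, whose call was lost in 4 alternatives (adjusted p up to 0.0816). AI662270 stood low in catalytic-dead cells, with 0.429, 0.284 and 0.144 CPM in formative libraries, against 0.576, 1.47 and 0.531 in wild type, and did not pass.

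Over the 80 genes, the difference of catalytic-dead from wild-type cells and that of knockout from floxed cells had a Pearson r of 0.18 in formative and 0.11 in naive cells (n = 80 genes that were chosen on the second, across genes of the same libraries). Over all genes r was 0.03 and 0.29. The catalytic-dead difference concerns both proteins, and the knockout difference MLL4 alone in cells without MLL3. Among the members the knockout differences were limited to those past the rule's minimum, so the coefficients over members and over all genes are not comparable.

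The effect of the catalytic-dead proteins differed between states for 8 of 69 members (interaction in limma). It was larger in formative cells for Glrx, where 1.71% of all genes were, and smaller in formative cells for Sox9, Chst1, Pon2, Gadd45g, Inka2, Anxa3 and Rhox6, where 1.51% of all genes were. For Sox9 the difference of the effects was -2.73 ± 0.59 log2 (adjusted p = 0.00715, limma), for Gadd45g -1.91 ± 0.41 (adjusted p = 0.00605) and for Anxa3 -1.43 ± 0.33 (adjusted p = 0.013), and these 3 calls held in every alternative run. Gadd45g, a stress-induced DNA damage protein, had 8.87, 10.6 and 9.68 CPM in formative catalytic-dead libraries, against 14.5, 14.1 and 16.5 in wild type, and 8.27, 9.74 and 7.55 CPM in naive ones, against 3.93 and 2.83. Gadd45g rose from naive to formative wild-type cells by 2.10 log2 (adjusted p = 1.55e-05, limma) and did not pass in catalytic-dead cells, with 0.19. The call on Pon2 was lost without formative wild-type library c, that on Glrx without formative wild-type library a or naive wild-type library b, and those on Chst1, Inka2 and Rhox6 in 8, 9 and 11 alternatives (adjusted p up to 0.0509, 0.104, 0.106, 0.0923 and 0.097).

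The course of the members from the naive to the formative state was tested in the 2 lines the rule did not use. In catalytic-dead cells 17 of 69 tested members rose (19.9% of all tested genes did) and 14 fell (12.9%). In wild-type cells 27 of 75 rose (18.2%) and 12 fell (11%). Of 69 members tested in both lines, 19 passed in both, where 18.1% of all genes tested in both did, and 17 of them in the same direction, where 17.8% did. The rising members were 24.6% of those tested in catalytic-dead and 36% in wild-type cells.

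**Figure D5:**
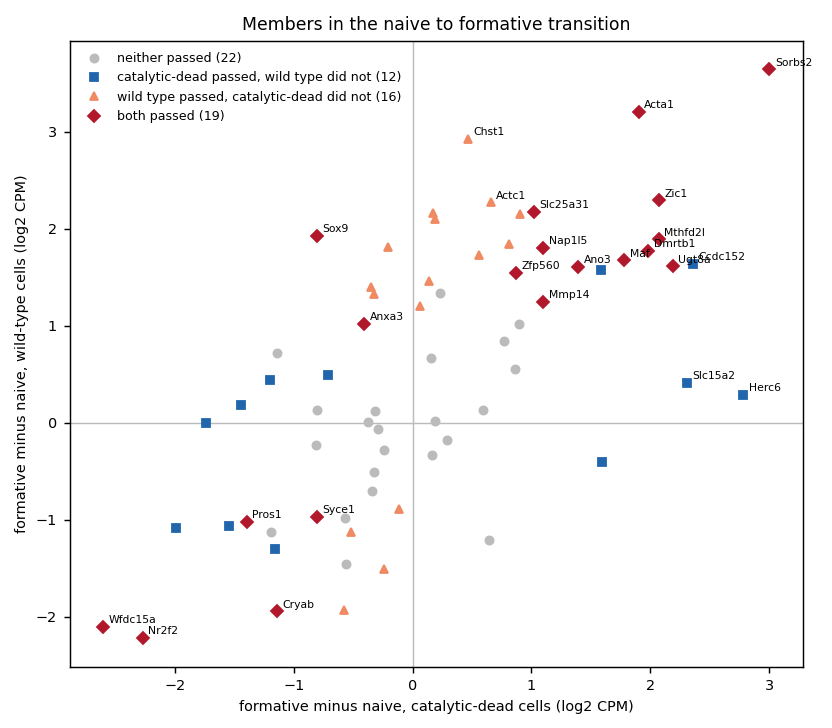
Formative minus naive in catalytic-dead cells (horizontal axis) and in wild-type cells (vertical axis), log2 CPM, for the 69 members tested in both lines, with symbols for the test passed at an adjusted p under 0.05. Of the 19 that passed in both lines 17 lie in the upper right or lower left, while Sox9 and Anxa3 fell in catalytic-dead and rose in wild-type cells.

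Sorbs2, an adaptor of actin and focal adhesions, rose most in wild type, with 2.38, 3.43 and 3.72 CPM in formative and 0.141 and 0 CPM in naive libraries, a ratio of 35.1 (9.44 to 294) on 2 naive tags. In catalytic-dead cells it had 4.29, 3.78 and 2.75 CPM in formative libraries, against 0.335, 0.152 and 0.328 in naive ones, a rise of 3.0 ± 0.53 log2 (adjusted p = 4.99e-05, limma). Acta1 rose by 1.90 in catalytic-dead and 3.20 in wild-type cells, Zic1 by 2.07 and 2.29, and Mmp14, a membrane-bound matrix metalloproteinase, by 1.10 and 1.24. Chst1, a keratan sulfate sulfotransferase, Actc1, Slc25a31, Pon2 and Pla2g4a, the cytosolic phospholipase A2, rose in wild type by 2.93, 2.27, 2.17, 2.16 and 2.16. Herc6, Ccdc152, Slc15a2, Ugt8a, Mthfd2l and Dmrtb1 were among the 8 largest rises in catalytic-dead cells (2.78, 2.36, 2.31, 2.19, 2.07 and 1.98).

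Emp1 fell most in wild type, to 2.23, 4.42 and 2.79 CPM in formative libraries, against 26.5 and 29.8 in naive ones (-3.13 ± 0.33, adjusted p = 1.14e-07, limma). Nr2f2 fell in both lines, by 2.27 in catalytic-dead and 2.22 in wild-type cells, as did Wfdc15a, a whey acidic protein domain gene, by 2.61 and 2.10, and Cryab, by 1.14 and 1.94. Fkbp6, Sohlh2 and Glrx fell in wild type by 1.90, 1.62 and 1.51, and so did Ly6k, a surface protein of sperm, by 1.93, a call lost without formative wild-type library a (adjusted p up to 0.0934). A330102I10Rik and Gata2 fell in catalytic-dead cells by 1.99 and 1.74, and Gm9, Frk, Pros1, the anticoagulant protein S, and Pon3 by 1.55, 1.45, 1.40 and 1.2, of which Gm9, Frk and Pon3 lost the call under some alternatives (adjusted p up to 0.104, 0.0838 and 0.132). Sox9 and Anxa3 went opposite ways: Sox9 fell by 0.81 in catalytic-dead cells and rose by 1.93 in wild type, and Anxa3 fell by 0.41 and rose by 1.02. The fall of Anxa3 lost its call in 9 alternatives (adjusted p up to 0.176) and that of Sox9 without weights (0.0956).

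Lists of lineage genes show where members stand among other genes of the same kind. Of 26 germline and meiosis genes measured, 4 were members (Slc25a31, Hormad1, Fkbp6 and Syce1), of 18 trophoblast genes 3 (Rhox6, Rhox9 and Gata2), of 25 mesenchymal and smooth muscle genes 3 (S100a6, Anxa3 and Acta2), and of 14 primitive endoderm, 11 mesendoderm and 16 neuroectoderm genes 1 each (Foxa2, Foxa2 and Zic1). Of all tested genes 4.89% rose and 3.53% fell in formative catalytic-dead cells, and 5.4% rose and 4% fell in naive ones, and the rule took 0.584% of all genes. In formative catalytic-dead cells 4 of 20 tested germline genes rose and 1 fell, and in naive ones 5 of 21 rose. Of the trophoblast genes 2 of 17 rose and 2 fell in formative and 7 of 17 rose and 1 fell in naive catalytic-dead cells. Of the mesenchymal genes 3 of 13 rose in formative cells, and 4 of 19 rose and 2 fell in naive ones. Of the mesendoderm genes 0 of 11 rose and 5 fell in formative cells, and 1 of 11 rose in naive ones. Of the neuroectoderm genes 4 of 14 rose in formative cells, and 1 of 15 rose and 1 fell in naive ones. Of the primitive endoderm genes 1 of 11 rose and 1 fell in formative cells, and 3 of 12 rose in naive ones. Among the Wnt genes 0 of 17 rose and 4 fell in formative cells, and 4 of 17 rose and 2 fell in naive ones. No member was among the naive or formative pluripotency genes, the Wnt, Hedgehog, BMP and Notch genes, the 2-cell-like genes, the Polycomb subunits, the DNA methylation genes or the MLL3/MLL4 complex.

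Because several members are genes of fibroblasts and smooth muscle, 12 fibroblast markers were set beside them, 8 of which are in the table and none a member. Their summed level was 40.7 to 55.1 CPM in formative knockout libraries, against 40.2 to 44.1 in floxed, and 43.7 to 48.0 CPM in formative catalytic-dead libraries, against 33.7 to 39.4 in wild type. In naive cells it was 9.03 to 10.0 CPM in knockout libraries, against 6.19 to 8.57 in floxed, and 9.84 to 12.1 CPM in catalytic-dead libraries, against 6.67 to 9.84 in wild type. None of the 8 was at 0 in a group. Single markers did not lie in 1 direction. Col1a2, a collagen chain gene that had passed the rule and was left out with that class, stood at 2.65 log2 CPM in formative knockout cells, against -0.06 in floxed, and Fbn1 at 1.61 in naive knockout cells, against -1.43. Thy1 lay the other way, at -1.57 log2 CPM in formative knockout cells, against 2.59 in floxed, and so did Dcn, at 0.99 against 3.41. Set against wild type, 2 of the 8 rose in formative catalytic-dead cells, Col1a2 by 2.47 and Dcn by 2.41 log2, and Thy1 fell by 2.05 in naive ones (adjusted p = 0.00026, 1.17e-05 and 0.0238, limma). Their part in the members' differences was not tested.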

How the data were processed

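Libraries were QuantSeq 3' FWD (a kit that reads 1 tag near the 3' end of each RNA), 50-base single-end, per the labels' protocols. Per the submitters' processing notes, FastQC 0.11.8, MultiQC, cutadapt 2.5, STAR, featureCounts of Subread 1.6.4, DESeq2 1.34.0 and the mm10 build were used, without their settings. The authors deposited 1 table of mean log2 CPM for 8 groups; each library's share enters with a prior count of 2 that grows with its size.

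From the 9 decimals of these means, whole counts per library were recovered for 23 libraries (4808564 to 15425959 counts). In all groups together, 10767 genes (64.8%) were recovered. Library letters follow the depth, not the labels' replicate numbers. The cultures are separate per the labels.

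Genes with 10 counts at the median library in at least 3 libraries were tested with limma 3.58.1 (R 4.3.3) in 1 model of the 8 groups, with weights from the trend of variance on count. P-values were adjusted by Benjamini-Hochberg over all genes tested, with a threshold of 0.05. The steps were tested on simulated data. Intervals are exact and cover counting error only. Folds are on the scale of log2 with the prior count, which understates change in low genes. Values marked "about" are formative knockout means approximated for 20 members by taking out the shared library, or else the catalytic-dead mean in its place.

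The members and the lists were chosen with earlier results of these data known. The text names the first 20 members by the smaller difference (the first 8 with every recovered library), up to 8 called members with the largest change per contrast and direction, the genes nearest the threshold, members of the lists, and neighbours within 100 kb; other members were named after their values were seen. Promoters are from RefSeq (GRCm38.p6) and coordinates from GENCODE vM21. Alternatives were other size factors, filters, prior counts and weights, a fit of the 2 groups alone, and leaving out each library. Leaving out the shared library was run under 2 names, so counts of alternatives and settings can hold it under both.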

Additional observations from a re-analysis of the deposited data

Results flagged for a closer look

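The effect of the catalytic-dead proteins, relative to wild type, differed between formative and naive cells for 8 of 69 members in limma's test of the difference itself. For Glrx the formative effect exceeded the naive one by 1.269 log2 (1.21 in formative and -0.06 in naive cells). The formative effect was below the naive one for Sox9 (-2.734, from 1.85 and 4.58), Chst1 (-2.461, from -0.70 and 1.76), Pon2 (-1.993, from -0.38 and 1.61) and Gadd45g (-1.911, from -0.62 and 1.29). It was also below it for Inka2 (-1.75, from -0.94 and 0.81), Anxa3 (-1.43, from 1.05 and 2.48) and Rhox6 (-1.205, from 1.09 and 2.30). Sox9, Gadd45g and Anxa3 kept the call in every alternative run.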

How the results depend on the processing

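No paired analysis was possible because the table's columns carry no replicate numbers. Over the calls on named members and their settings, 678 of 730 values kept their direction and side of the threshold, 52 lost the call and none changed sign. Values that had not passed did change sign leaving out libraries, among them the formative catalytic-dead differences of Zic1 (-0.14 to 0.34), Tshz1 (-0.36 to 0.05) and Zfp560 (-0.15 to 0.08). Of members lower in formative catalytic-dead cells (1), there were 0 with only the groups of the contrast, 3 with median-ratio size factors, 2 with a filter of 30 counts and 0 without the shared library; leaving out single libraries gave 0 to 2, and in naive cells 0 to 1 (1 without wild-type library a). Members higher by state difference were 3 without weights and 2 with a filter of 30 counts, and 0 to 1 leaving out libraries (0 without formative wild-type library a). Members lower by state difference were 4 without the shared library and 3 to 9 leaving out libraries (3 without formative wild-type library c; 4 without naive catalytic-dead library b). Members that fell in catalytic-dead cells from naive to formative were 9 to 15 leaving out libraries (9 without formative catalytic-dead library a). The median change of all members tested there, rising ones included, was 0.134. It turned to -0.033 without naive catalytic-dead library c and -0.048 without formative catalytic-dead library b (range -0.048 to 0.121). Members higher leaving out libraries were 16 to 24 in formative and 18 to 25 in naive catalytic-dead cells. The rule gave 204 genes at a difference of 1 log2, 47 at 2 log2 and 51 at a level of 3 log2 CPM. Members chosen without the shared library, an alternative added after seeing the data, gave 24 higher of 107 in formative (22.4%) and 27 of 105 in naive catalytic-dead cells (25.7%). Size factors moved the median of all genes from 0.06 to -0.02 in formative and from 0.13 to -0.02 in naive catalytic-dead cells. Low counts limit members under 1 CPM in wild-type cells. The causes were not tested.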
